A study of Mus musculus with 31 samples.

Results

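The mRNAs of the large (60S) subunit ribosomal proteins, Rpl10 left out, were followed in mouse lymphoid cells that carry a wild-type or a mutant RPL10. The members were chosen by name. They are the cytosolic 60S protein genes with a row in both gene tables, and all 45 of them passed a mean of 10 normalized counts in both tables, out of 41255 symbols listed. The cells were Ba/F3, an interleukin-3-dependent mouse pro-B line, transduced with a retrovirus for human RPL10 cDNA that was either wild type (WT) or held the arginine-to-serine change R98S. Endogenous Rpl10 was knocked down with an shRNA in both genotypes, so the WT cells are not unmodified Ba/F3. Each genotype was represented by 3 lines, each grown from a single cell (WT clones 28, 29 and 36, R98S clones 11, 13 and 35), and each clone by up to 3 cultures that the labels give a replicate number from 1 to 3. Total mRNA was sequenced from 9 R98S and 8 WT cultures. Polysomal RNA, the transcripts carrying at least 2 ribosomes, was sequenced from 8 R98S and 6 WT cultures, all of which have a total mRNA library. Another WT clone 36 total mRNA library, which the study set aside because it grouped with R98S, was not analysed here.

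The 60S subunit holds the peptidyl transferase centre, which joins amino acids, and the tunnel through which the new protein leaves. Its proteins are needed in balanced numbers, and most of their mRNAs begin with a short pyrimidine stretch, the 5′ terminal oligopyrimidine (TOP) tract, through which mTOR signalling and the protein LARP1 adjust how many copies are on ribosomes. RPL10 itself joins the subunit late, in the cytoplasm, and is among the last proteins to be added. In lymphoid cells several of its partners have been tied to leukaemia, among them RPL5, RPL11 and RPL22.

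The first bases of these mRNAs were read from RefSeq promoter entries (GRCm38.p6), of which 34 of the 45 members had at least 1. Rpl3, Rpl7, Rpl8, Rpl17, Rpl21, Rpl23a, Rpl29, Rpl30, Rpl32, Rpl36 and Rplp1 are named only. A run was sought of at least 6 bases that begins with C and holds only C or T. It had to start within 10 bases of the annotated start on either side. A gene counted if any of its listed starts had such a run. On the transcribed strand this held for 19 of the 34 members (55.9%), against 22.4% of the 17648 genes in the tables with a promoter entry. On the opposite strand the shares were 11.8% and 25.3%. Windows of 30 bases, 10 before the annotated start and 20 from it on, follow for members on which the results turn, with the run in capitals. They are 3 of the members that differed between genotypes in total mRNA, the paralogues Rpl22 and Rpl22l1, and, from the comparison of replicate numbers, 2 members with a large shift and the 1 with the smallest.
Rpl27a (chr7:109519185-109519214, plus strand): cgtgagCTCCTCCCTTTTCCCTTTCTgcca
Rplp2 (chr7:141447641-141447670, plus strand): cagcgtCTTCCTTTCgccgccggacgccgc
Rpl37 (chr15:5116603-5116632, plus strand): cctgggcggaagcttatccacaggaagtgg
Rpl22 (chr4:152325716-152325745, plus strand): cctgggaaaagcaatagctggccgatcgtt
Rpl22l1 (chr3:28805498-28805527, plus strand): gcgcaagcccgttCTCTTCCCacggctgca
Rpl38 (chr11:114668570-114668599, plus strand): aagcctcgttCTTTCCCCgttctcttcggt
Rpl35 (chr2:39005112-39005141, minus strand): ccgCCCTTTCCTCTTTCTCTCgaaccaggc
Rplp0 (chr5:115559457-115559486, plus strand): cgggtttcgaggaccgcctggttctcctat
Rpl27a and Rpl35 carry long runs across the start, Rpl38 begins with its run, and no run of this kind lies in the windows of Rpl37, Rpl22 (1 of 2 starts listed) or Rplp0. An absent run says only that these letters are not in this window.

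Libraries held 8831180 to 22059792 reads on genes. The blood cell genes Ptprc, Laptm5 and Csf2rb were high in all 17 total mRNA libraries. The B lymphoid genes Pax5 and Rag1 were at 0 or under 1 normalized count, while the B lymphoid genes Cd79a (706 to 1293 normalized counts) and Cd79b (149 to 591) were present. Some markers differed between genotypes. Csf2rb had 28599 to 54062 in WT and 59641 to 119306 in R98S, and the T lymphoid gene Cd3d 5 to 23 and 31 to 97. The erythroid genes Klf1 and Hba-a1 had medians of 1035 and 111 in WT and 650 and 13 in R98S, with overlapping ranges. Laptm5 had medians of 6844 and 6864. Whether these differences bear on the members was not tested. Mouse Rpl10, the knocked-down gene, read 620 to 5715 normalized counts in WT and 901 to 2984 in R98S total mRNA, and reads of the human cDNA may align to it. Samples with the same replicate number resembled each other (see the processing notes), and polysomal libraries with number 3 stood apart from those with numbers 1 and 2. The genotypes are not balanced over the numbers, with 1, 2 and 3 WT and 3, 2 and 3 R98S polysomal libraries of numbers 1, 2 and 3.

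In total mRNA the 45 members together took 4.95% to 6.58% of all normalized counts of a library, and the median member lay at the 98.8th to 99.3rd percentile of genes. Per kilobase of annotated transcript, the level in total mRNA ran from 820 to 82040 normalized counts with a median of 18667. The stalk protein gene Rplp1 was highest with 82040, before Rpl4, whose protein reaches into the exit tunnel, with 53810, and the stalk base gene Rplp0 with 52792. At the other end were Rpl18 (820), Rpl23a (874), whose protein sits at the tunnel exit, and Rpl24 (1710), whose protein bridges the 2 subunits. Annotated transcripts of some members are long, and Rpl18 was taken at 2989 bases. Per kilobase of coding sequence the same 3 genes were lowest, in another order (Rpl23a 1045, Rpl24 2458, Rpl18 4346), while Rpl41, with a coding sequence of 75 bases, came first at 212608.

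Many members have near-identical copies in the genome, and how their reads were counted was not varied here. Of the windows of 50 bases in each member's transcript, 5.2% (Rpl22) to 93.3% (Rpl9) occur also in a transcript of another gene, and in 19 members this share was above 50%. It was 82.6% for Rpl23a, 81.7% for Rpl24 and 85.6% for Rpl3. Over the 45 members the level per kilobase and this share had a Spearman rho of 0.06 as a description, and the part of shared sequence in the levels was not tested. The 138 rows listed as processed copies of members summed to 0.392% of the members' total mRNA counts, with Rpl3-ps1 the highest at 2452 normalized counts.

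The ratio of polysomal to total mRNA of a culture, on a log2 scale, is relative to the average gene because each table was scaled on its own. Averaged over the 14 cultures, it was 0.06 for the median member against -0.29 for the median gene. The highest of these means were those of Rpl23a (0.61), Rpl7a (0.49) and Rpl27 (0.46), and the lowest those of Rplp0 (-0.61), Rpl12 (-0.57) and Rpl41 (-0.51). The order depended on the replicate number of the culture, described further on, so these means mix 2 different orders. In the 8 cultures of numbers 1 and 2 the highest were Rpl7 (0.04), Rpl7a (-0.05) and Rpl19 (-0.07) and the lowest Rpl32 (-1.13), Rpl35 (-1.12) and Rpl36 (-1.06). In the 6 of number 3 the highest were Rpl23a (2.17), Rpl38 (1.76) and Rpl22l1 (1.75) and the lowest Rplp0 (-0.52), Rpl41 (-0.16) and Rplp1 (-0.02). Rplp0, Rplp1, Rplp2 and Rpl12 form the P-stalk and its base, where elongation factors dock. They held ranks 45, 43, 39 and 42 of the 45 in number 3, but 27, 34, 30 and 40 in numbers 1 and 2.

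The first comparison asked which of these mRNAs differ between R98S and WT in total mRNA. Of the 45 members, 4 rose and 4 fell in R98S at an adjusted p under 0.1 (limma, Benjamini-Hochberg over 11133 genes), which is 17.8% of members where 30.3% of all genes tested were called, 14.5% higher and 15.8% lower. On recovered reads edgeR called 8 members and DESeq2 9. The differences were small, between -0.45 and 0.35 on the log2 scale. The median member differed by -0.06, and the median gene by 0.00. The fold differences of the called members ran from 0.73 to 1.28. In such bulk libraries fewer cells with an mRNA and fewer copies per cell cannot be told apart.

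Rpl36, whose protein joins early pre-60S particles, fell most. Its normalized counts were 8965, 11139 and 12894 (lowest, median and highest of 8 libraries) in WT and 7091, 7634 and 9673 in R98S. The lowest WT library exceeded 7 of the 9 R98S libraries, and the difference was -0.45 ± 0.09 on the log2 scale (SE, adjusted p = 0.00217, limma). Rpl37, which encodes a small rRNA-binding protein, had 11731, 14192 and 15310 in WT and 9862, 11805 and 13712 in R98S. The groups overlapped, with 4 R98S libraries below all of WT, and the difference was -0.25 ± 0.08 (adjusted p = 0.0309). Rpl3, next to the peptidyl transferase centre in the subunit, fell by 0.22 ± 0.08 on the log2 scale (adjusted p = 0.057), from a WT median of 36140 to 31565. Rpl34 fell by 0.27 ± 0.10 on the same scale (adjusted p = 0.0619). In R98S clone 11 its counts (12443 to 14996) lay within the WT range of 12205 to 16168, whereas all 6 libraries of clones 13 and 35 were below it.

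Rpl27a, a core protein of the subunit, rose most. Its normalized counts were 15697, 17489 and 20722 in WT and 16212, 23378 and 28142 in R98S, with 6 of 9 R98S libraries above all of WT. The difference was 0.35 ± 0.10 (SE, adjusted p = 0.0212, limma). Rplp2 of the stalk had 14907, 15523 and 18184 in WT and 15959, 18438 and 24713 in R98S, a difference of 0.28 ± 0.10 (adjusted p = 0.0435). The highest Rplp2 values were the 3 of R98S clone 11 (22608 to 24713). Rpl10a, the protein of the L1 stalk where used tRNA leaves, rose by 0.32 ± 0.12 (adjusted p = 0.0567), with WT values of 14016, 16403 and 22395 and R98S values of 15160, 21159 and 25480. Rpl7 rose by 0.28 ± 0.12 (adjusted p = 0.0976). All 6 libraries of R98S clones 11 and 13 were above every WT library (39161 to 45976 against 25762 to 34583), and the 3 of clone 35 (27081 to 34202) were not.

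**Figure D1:**
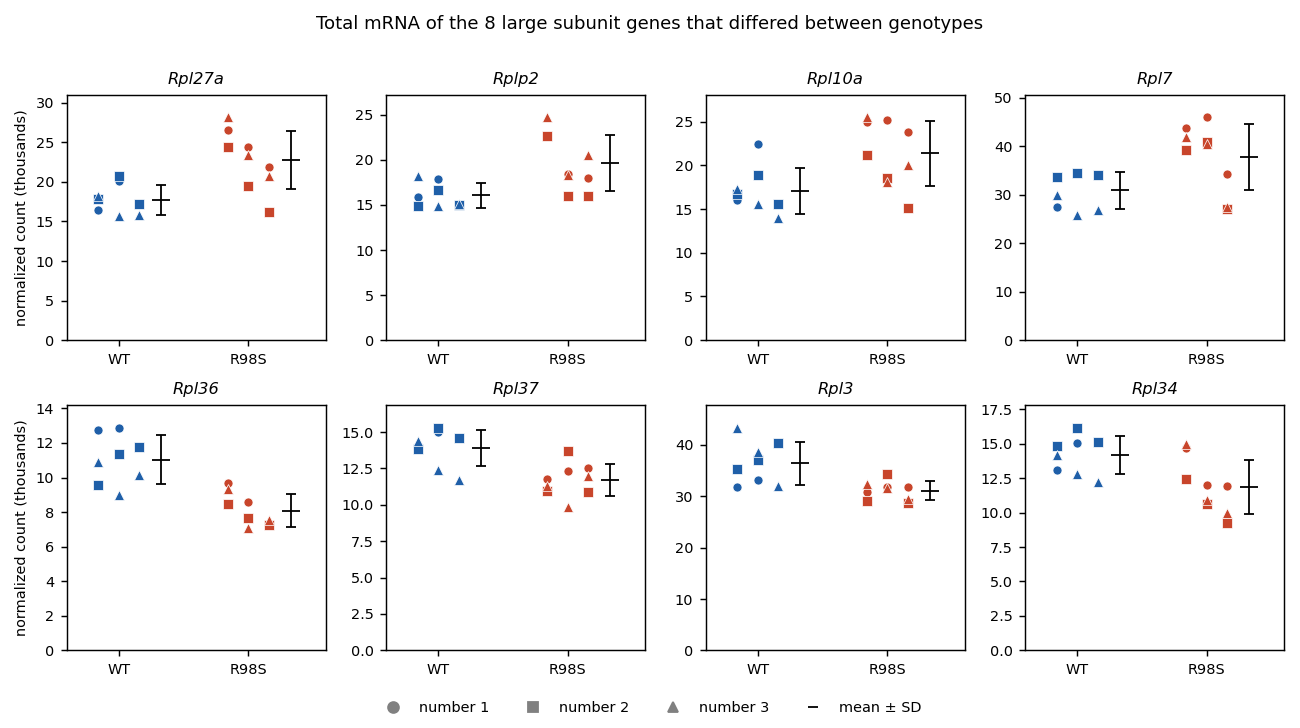
Total mRNA of Rpl27a, Rplp2, Rpl10a and Rpl7 (top) and Rpl36, Rpl37, Rpl3 and Rpl34 (bottom), in normalized counts on an axis in units of 1000, with one point per library, clones side by side within a genotype (WT 28, 29 and 36, R98S 11, 13 and 35) and shapes for the replicate number. Black bars give the mean and SD of 8 WT and 9 R98S libraries, and the groups overlap in each panel.

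The other members of known roles did not pass the test in total mRNA. The 5S rRNA partners Rpl5 and Rpl11, which can also bind Mdm2, differed by -0.14 ± 0.12 and -0.09 ± 0.07 (SE). Rpl22 and its paralogue Rpl22l1 differed by -0.14 ± 0.11 and 0.12 ± 0.14. The remaining stalk genes Rplp0 and Rplp1 were at -0.04 ± 0.10 and 0.01 ± 0.13. The bridge genes Rpl24 and Rpl41 were at -0.05 ± 0.08 and -0.18 ± 0.12, and Rpl39 of the exit tunnel at -0.06 ± 0.13. By role, and against the 30.3% of all genes called, 1 of 4 stalk members, 3 of 12 members of the early-joining core (Rpl3, Rpl7 and Rpl36) and 0 of 8 members at the tunnel were called. The list of 40S proteins had 2 of 34 members called, both higher, and other TOP mRNAs had 5 of 18.

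The calls rested on few clones, and cultures of a clone are not independent samples of a genotype, so the p-values measure the spread between these libraries. Of the 8 members, Rpl36 and Rpl34 stayed called without R98S clone 11, Rpl36 and Rpl27a without WT clone 28, and Rpl36 and Rpl37 without replicate number 3, and 4 did without WT clone 29. Other omissions kept more, with 6 still called without R98S clone 13, 6 without R98S clone 35 and 5 without WT clone 36. With clone means as the unit, 4 of the 8 were called. The means of the 3 R98S clones and of the 3 WT clones did not overlap for 14 of 45 members, where 40.1% of all genes had no overlap. With the replicate number as a block, 10 members were called (38.4% of all genes), all 8 of the above among them.

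In polysomal RNA no member was called by limma (0 of 45 with an adjusted p under 0.1, where 13.5% of 10707 genes were called), none had an unadjusted p under 0.05, and edgeR and DESeq2 on recovered reads called 0 as well. The median member differed by -0.02, with 19 members above 0 and 26 below. With the replicate number as a block this median was 0.15, with 37 above 0 and 8 below, and the median gene was at -0.01. Over 26 alternatives the median member difference ran from -0.33 to 0.45. The standard errors were smaller with the block, and 7 members were then called, all higher in R98S (15.6% of members, where 30.9% of all genes were called and 15.2% called higher). They were Rpl10a (0.58 ± 0.12, adjusted p = 0.00302), Rpl7 (0.53 ± 0.14, adjusted p = 0.0115), Rpl31 (0.43 ± 0.13), Rpl27a (0.45 ± 0.15), Rpl12 (0.33 ± 0.12), Rpl15 (0.34 ± 0.13) and Rpl37a (0.41 ± 0.17, adjusted p = 0.0952). Rpl10a, Rpl7 and Rpl27a of these were also higher in total mRNA. Rpl36 was at -0.47 ± 0.43 without the block and at -0.28 ± 0.15 with it (adjusted p = 0.612 and 0.196).

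The ratio of polysomal to total mRNA asked whether R98S shifts these mRNAs onto or off polysomes beyond their total level. No member was called in 8 R98S against 6 WT cultures (0 of 45, where 0.047% of 10627 genes were called by limma), none had an unadjusted p under 0.05, and edgeR and DESeq2 called 0. The smallest adjusted p was 0.866, for Rplp0, with a difference of 0.26 ± 0.17 (SE). Over the 45 members the differences ran from -0.21 to 0.32 around a median of 0.02. With the replicate block all 45 differences were above 0 with a median of 0.23, 6 members had an unadjusted p under 0.05 and again none was called (0.433% of all genes, smallest adjusted p = 0.341, Rpl10a). Of all 10627 genes, 5310 were above 0 in this fit, with a median of -0.0003, and 1281 had an unadjusted p under 0.05 in limma. The 40S proteins behaved alike, with 34 of 34 above 0, a median of 0.27 and 0 called. Over 26 alternatives the median member difference ran from -0.33 to 0.57. It was -0.33 without WT clone 29 and 0.24 without WT clone 36, so its sign changed with the libraries left out. These omissions also change the balance of numbers, since WT clone 29 holds the 1 WT polysomal library of number 1 and the WT clone 36 polysomal library is of number 3. Standard errors for single members were large without the block, 0.70 for Rpl22l1 and 0.62 for Rpl39, and 0.23 and 0.20 with it. Fewer polysomes in a culture and fewer copies of an mRNA on each cannot be told apart in such libraries.

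**Figure D2:**
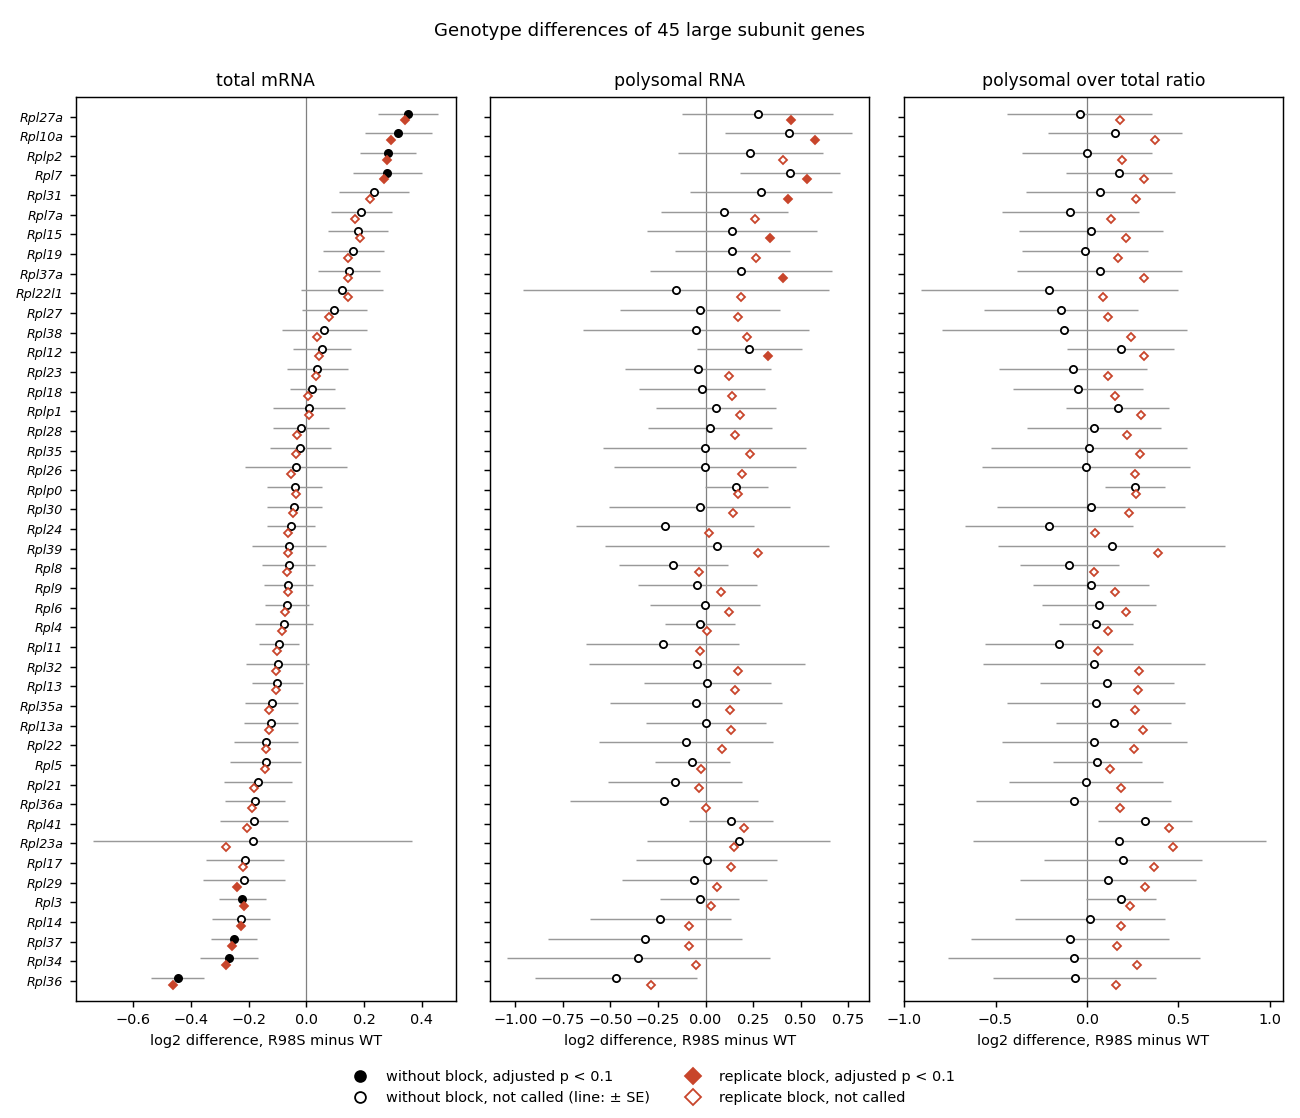
Log2 difference of R98S minus WT for each of the 45 genes in total mRNA, polysomal RNA and their ratio, without a block (circles, bars ± SE) and with the replicate number as a block (diamonds), filled where the adjusted p is under 0.1. In total mRNA 8 circles are filled, in the other panels none, and 7 diamonds are filled in polysomal RNA.

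The largest difference in the data for these mRNAs lay between replicate numbers. Polysomal RNA of number 3 held far more of nearly every member than that of numbers 1 and 2, in both genotypes, while total mRNA did not. In polysomal RNA the members' share of all normalized counts was 4.5% to 6.48% in the 8 libraries of numbers 1 and 2 and 7.99% to 9.93% in the 6 of number 3, and these ranges do not overlap. In total mRNA the share was 4.95% to 6.58% in numbers 1 and 2 and 5.27% to 6.50% in number 3. An F-test over the 3 numbers in limma, with the genotype as a term, called 44 of 45 members in the ratio (71.3% of all genes called), 43 in polysomal RNA (64.9%) and 8 in total mRNA (43.5%). Rplp0 was the exception in the ratio, and Rplp0 and Rpl23a in polysomal RNA. What a number stands for is not given in the labels. The sum of all normalized counts also moved with it, from 12382109 to 13546555 in polysomal libraries of numbers 1 and 2 up to 16404975 to 18467666 in those of number 3, and its part in the shift was not tested.

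Set against the mean of numbers 1 and 2, a contrast chosen after the data were seen, number 3 had a higher ratio for 44 members called and a lower one for 0 (32.4% of all genes were called higher and 35.1% lower). The median member shifted by 1.5 on the log2 scale and the median gene by -0.06. In polysomal RNA 43 members were called, all higher (35.1% of all genes were called higher in this measure too), with a median of 1.32 against -0.03 for all genes. The ratio of 39 members was higher in all 6 cultures of number 3 than in any of the 8 others, which held for 13.9% of all genes. Within WT alone 41 members were called higher (median 1.70, 25.8% of all genes), and within R98S alone 44 (median 1.38, 29.3%). Between numbers 2 and 1, limma called no member in polysomal RNA or in the ratio (0.0% and 10.2% of all genes), with 0 at an unadjusted p under 0.05 in both. In total mRNA it called 5 members, all lower in number 2 (35.8% of all genes), namely Rpl10a, Rpl18, Rpl24, Rpl27 and Rpl41. No other tool was run on the numbers.

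The median member's ratio per culture shows the step. In number 1 it was -1.08 in WT clone 29, and -0.26, -0.80 and -0.44 in R98S clones 11, 13 and 35. In number 2 it was -0.46 and -1.01 in WT clones 28 and 29, and -0.68 and -0.39 in R98S clones 13 and 35. In number 3 it was 0.81, 0.84 and 1.02 in WT clones 28, 29 and 36, and 0.66, 1.25 and 0.96 in R98S clones 11, 13 and 35. The median over all genes stayed between -0.36 and -0.21 in all 14 cultures. Numbers 1 and 2 thus placed the median member at the 13.0th to 46.6th percentile of genes by ratio and number 3 at the 79.6th to 88.8th. A test of whether the genotype difference varies with the number called no member in total mRNA, polysomal RNA or the ratio (0.0%, 0.028% and 0.386% of all genes), with 0, 1 and 2 members at an unadjusted p under 0.05 in limma.

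**Figure D3:**
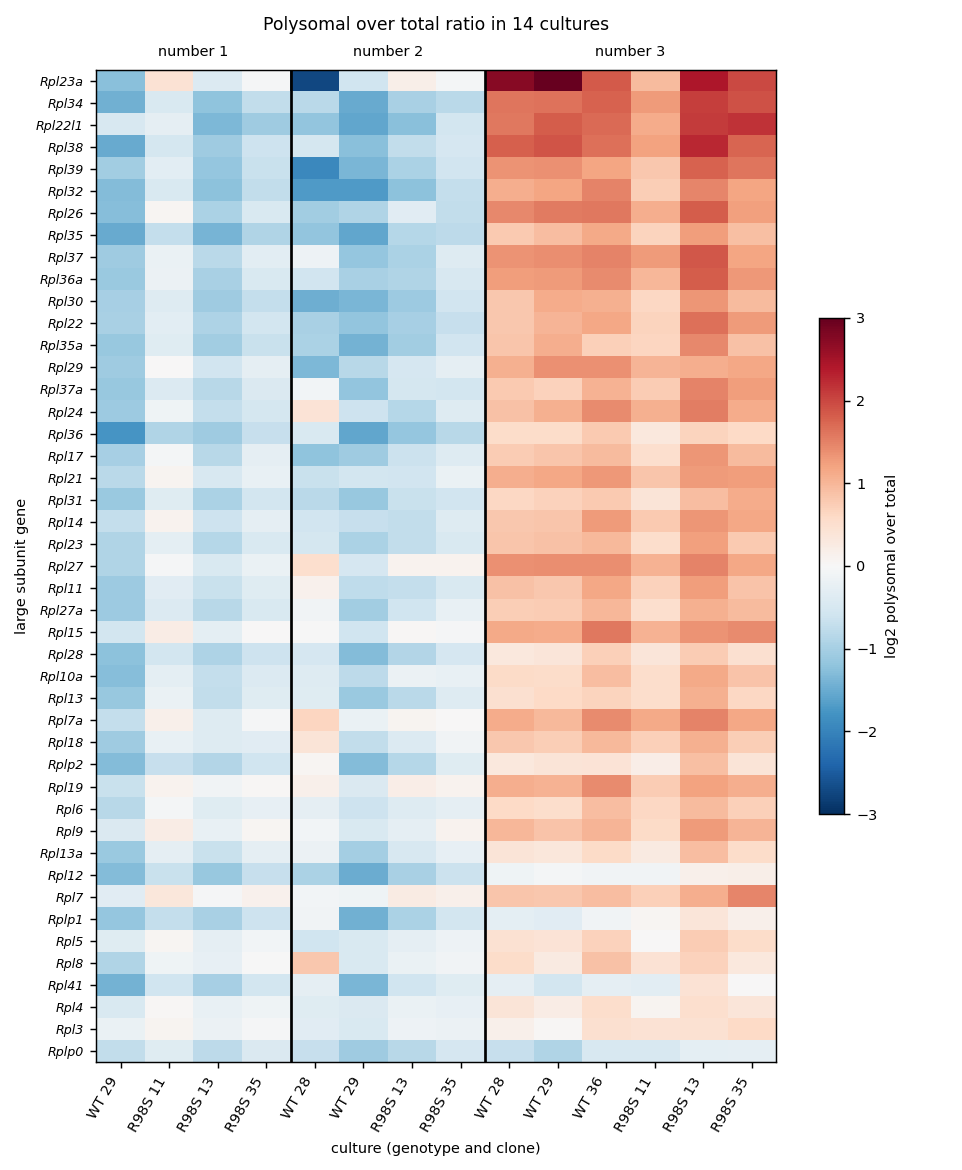
Log2 ratio of polysomal to total mRNA for each of the 45 genes (rows, ordered by the shift of number 3) in 14 cultures (columns, named by genotype and clone), grouped by replicate number between the black lines. In number 3 between 41 and 44 of the 45 genes lie above 0 in each culture, and in numbers 1 and 2 between 0 and 13.

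Members differed in how far they shifted. Rpl22l1 had 1439 to 3482 normalized counts in the 8 polysomal libraries of numbers 1 and 2 and 13138, 14674, 15276, 13441, 22521 and 15890 in those of number 3 (R98S 11, WT 29, 28 and 36, R98S 13 and 35). Its total mRNA overlapped between the numbers (2876 to 4354 in 1 and 2, 3555 to 6042 in 3). The shift was 3.10 ± 0.18 in polysomal RNA and 2.72 ± 0.22 in the ratio (SE, adjusted p = 9.39e-07, limma). Rpl22, its paralogue, moved from 4318 to 7196 in numbers 1 and 2 to 14905 to 23239 in number 3, a ratio shift of 1.96 ± 0.16. Both genes of the pair were thus higher on polysomes in every library of number 3, whatever the genotype.

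Rpl34 had the smallest p of all members in the ratio. Its polysomal counts were 5182 to 10666 in numbers 1 and 2 and 36633 to 45992 in number 3, with a shift of the ratio of 2.74 ± 0.17 (SE, adjusted p = 4.13e-07, limma). Rpl38, whose loss alters skeletal patterning in mice, shifted by 2.63 ± 0.19 in the ratio, and Rpl35 of the tunnel exit by 2.10. Rpl32 went from 14604 to 30490 up to 74172 to 89196 in polysomal RNA. Rpl39 of the exit tunnel shifted by 2.40 ± 0.20 in the ratio and the bridge gene Rpl24 by 1.68 ± 0.21. Rpl10a of the L1 stalk was at 1.34 ± 0.15.

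Some abundant members shifted little. Rplp0, the base of the stalk, had 40124 to 58578 polysomal normalized counts in numbers 1 and 2 and 43356 to 61118 in number 3, which overlap, and a ratio shift of 0.20 ± 0.13 (SE, adjusted p = 0.202, limma). Rpl3 and Rpl4 were at 0.57 ± 0.11 and 0.62 ± 0.12, and Rpl41 and Rpl8 at 0.67 ± 0.18 and 0.68 ± 0.21. The 5S partners were at 0.77 ± 0.14 for Rpl5 and 1.48 ± 0.17 for Rpl11, and were not compared by a test. Their order was reversed under the transcript length correction described further on, with 0.51 for Rpl5 and 0.25 for Rpl11. With coding length they were at 0.42 and 0.64. Among the stalk genes, Rplp1 was at 0.83 ± 0.19 and Rplp2 at 1.20 ± 0.20. By role, the median ratio shift was 0.92 for the 4 stalk members, 1.31 for the 12 of the early core and 1.86 for the 8 at the tunnel. These medians are descriptions, were not compared by a test and differ after a correction for length, given further on.

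**Figure D4:**
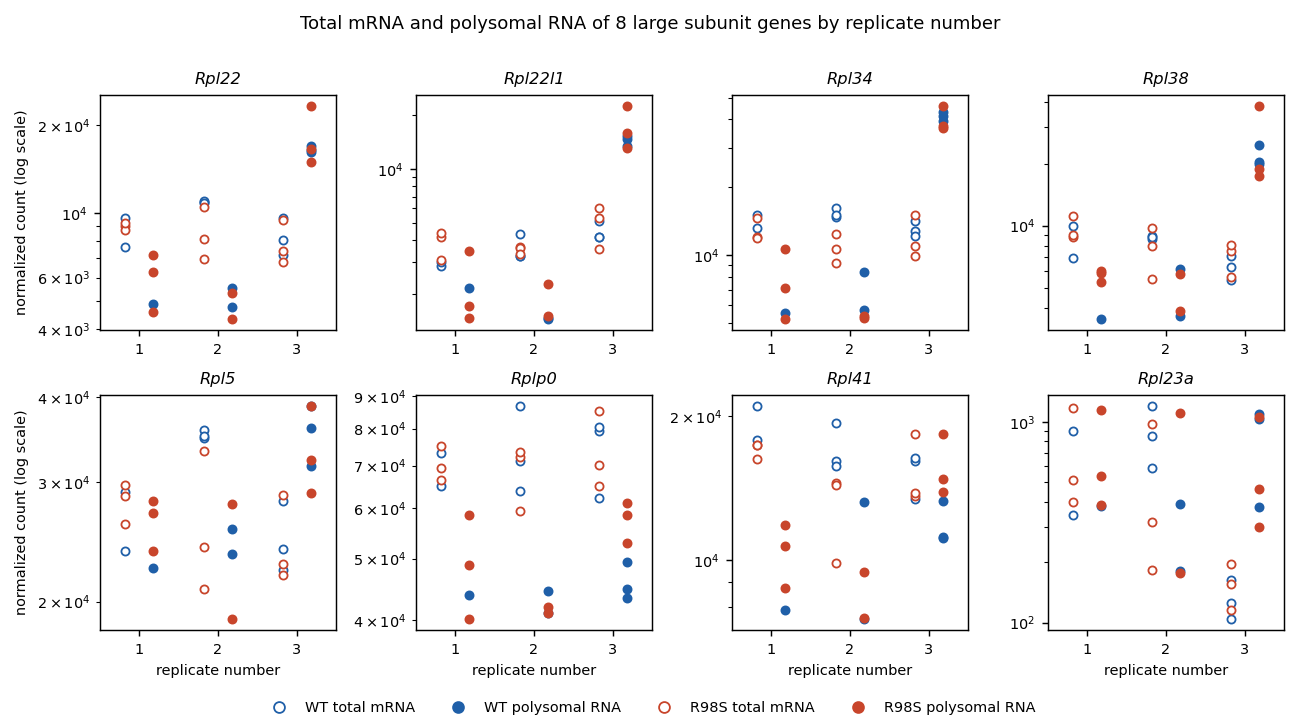
Normalized counts (log scale) of Rpl22, Rpl22l1, Rpl34, Rpl38, Rpl5, Rplp0, Rpl41 and Rpl23a by replicate number, open for total mRNA and filled for polysomal RNA, one point per library. For Rpl22l1 the polysomal points of number 3 (13138 to 22521) stand above all points of numbers 1 and 2 (1439 to 3482), and for Rplp0 they overlap.

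Transcript length moved with this shift over the whole transcriptome. Among genes other than the members, the median ratio shift of number 3 was 1.63 for annotated transcripts of up to 500 bases, 1.53 from 500 to 750, 1.21 from 750 to 1000, 0.81 from 1000 to 1500, 0.42 from 1500 to 2000, 0.03 from 2000 to 3000 and below 0 for longer ones. Over 10126 genes the Spearman rho of shift and log2 length was -0.62, and over the 45 members -0.49 with transcript length and -0.63 with coding length, given as descriptions since the points share their libraries. The members are short, with a median transcript of 906 bases against 2909 for the genes tested. In every class of like length that held members, their median was above that of other genes. It was 1.86 for the 4 members of up to 500 bases, 1.83 for the 13 of 500 to 750, 1.48 for the 9 of 750 to 1000 and 1.13 for the 13 of 1000 to 1500, and 1.45 and 1.22 for the 3 each of 1500 to 2000 and of 2000 to 3000. Of the 45 members 35 lay above the median of other genes in their class. The classes rest on annotated transcripts, which for some members are far longer than the coding sequence. Rpl18 has 2989 against 564 bases, Rpl5 2045 against 891, Rpl15 1922 against 612 and Rpl21 1856 against 480. How far the annotation raises this count was not tested. The 10 members below their class median were Rplp0, Rplp1, Rplp2, Rpl3, Rpl8, Rpl9, Rpl10a, Rpl19, Rpl27 and Rpl41.

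With the trend on transcript length subtracted in each library, an alternative chosen after the data were seen, the F-test over the numbers called 30 members in the ratio (59.6% of all genes) and 26 in polysomal RNA (52.1%). With coding length it called 37 (63.0%) and 34 (51.4%). Under the transcript length correction, the median member shift of the ratio was 0.39, and limma called 25 members higher and 5 lower (29.0% and 25.1% of all genes). With coding length the median was 0.63, with 39 higher and 2 lower (29.4% and 26.8% of all genes). Under the transcript length correction the shift was 1.71 for Rpl22, 1.27 for Rpl34 and 1.16 for Rpl22l1, and with coding length 0.82, 1.53 and 1.55. Rpl24 (0.27, adjusted p = 0.155, limma) and Rplp2 (0.10, adjusted p = 0.603) were no longer called with transcript length, while 9 members lay below 0, among them Rplp1 at -0.80, Rpl41 at -0.86 and Rplp0 at -0.53. By role the medians under this correction were -0.21 for the 4 stalk members (0 called higher, 2 lower), 0.15 for the 12 of the early core (4 higher, 1 lower) and 0.78 for the 8 at the tunnel (6 higher). With coding length they were -0.05, 0.57 and 0.71. A correction for GC content left the median of all members at 1.57. Members with a pyrimidine run at the start had a median ratio shift of 1.45 (19 genes) and those without 1.5 (15 genes), both without a length correction. Their median transcript lengths differed, with 964 and 780 bases, so these medians do not separate the run from length.

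**Figure D5:**
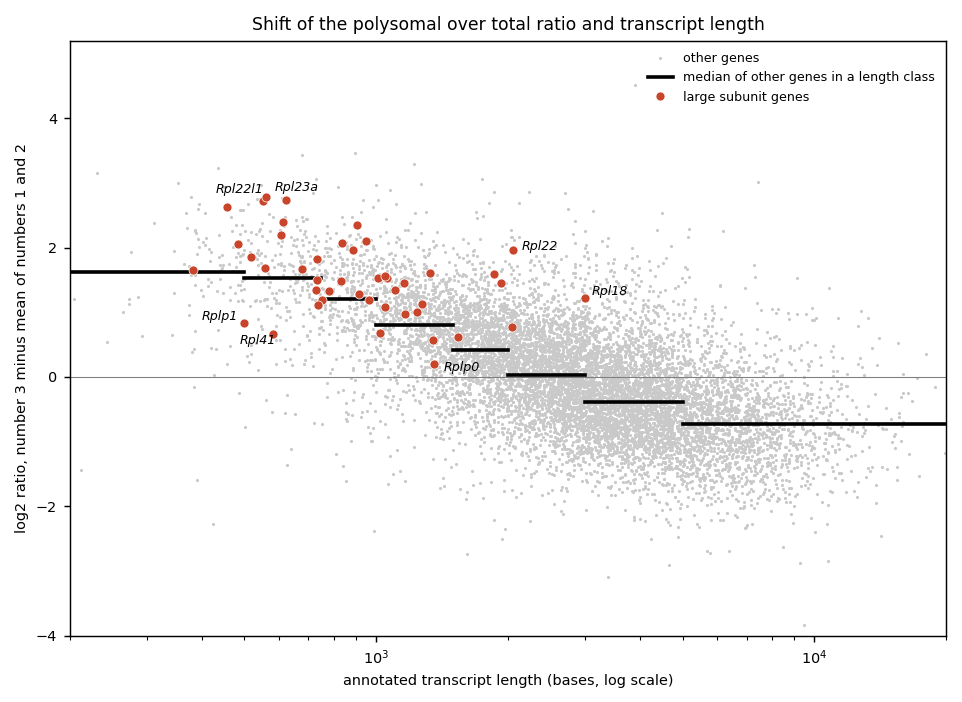
Shift of the log2 ratio of polysomal to total mRNA (number 3 minus the mean of numbers 1 and 2) against annotated transcript length in bases (log scale), for the 45 large subunit genes (red) and other genes (grey), with the median of the other genes in each length class (black lines). The class medians fall from 1.63 in the shortest class to -0.73 in the longest, and the red points have medians of 1.86, 1.83, 1.48 and 1.13 in the 4 shortest classes.

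Other lists of the translation machinery were measured in the same contrast, in which 32.4% of all genes were called higher and 35.1% lower. The 40S proteins had a median ratio shift of 1.39 in number 3 (32 of 34 called, all higher). Other TOP mRNAs, such as translation factors, had 0.38 (14 of 18 called, 11 higher) and 60S assembly factors 0.38 (13 of 24 called, 12 higher). With the transcript length correction the medians were 0.16 for the 40S proteins (13 higher and 5 lower of 33), -0.05 for other TOP mRNAs (7 and 7 of 18) and 0.47 for assembly factors (12 higher of 23), so the order of the lists was not kept. With coding length they were 0.48, 0.24 and 0.57. Whether these lists differ from the 60S members was not tested. In the R98S minus WT difference of the ratio, the assembly factors had a median of -0.48 with 0 of 24 called and the members were at 0.02. With the replicate block these medians were -0.27 and 0.23, and again 0 assembly factors were called.

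In total mRNA number 3 differed for few members, 2 higher and 5 lower (8.2% and 5.33% of all genes). Rpl23a fell most, by 2.06 ± 0.35 on the log2 scale (SE, adjusted p = 0.0028, limma). Its total mRNA counts were 104 to 195 in number 3 and 183 to 1203 in numbers 1 and 2, and 5 of the 6 libraries of number 3 lay below all others. They also varied within numbers 1 and 2, from 345.8 to 1203.4 in WT clone 28 alone, and this gene shares 82.6% of its windows with other genes. In polysomal RNA, Rpl23a overlapped between the numbers (176 to 1150 against 300 to 1095). Its polysomal shift was 0.56 ± 0.43 (adjusted p = 0.270), 1.24 within WT (adjusted p = 0.0941) and 0.01 within R98S. Its ratio shift was 2.78 ± 0.44, the largest of all members. Rpl29 fell by 0.47 ± 0.10 (adjusted p = 0.0115), and Rpl22l1 rose by 0.41 ± 0.12 (adjusted p = 0.0355). The call of Rpl22l1 was lost with a GC correction (0.12, adjusted p = 0.630), and over its 5 alternatives the adjusted p was 0.0117 to 0.630. Rpl22l1 was also not called within WT alone, where its shift was 0.45. Within R98S alone none of these 3 members was called.

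Clones of a genotype were compared last. A limma F-test on both genotypes together called no member for clone differences within a genotype. This was 0 of 45 in total mRNA, polysomal RNA and the ratio, where 1.88%, 4.17% and 0.0% of all genes were called. At an unadjusted p under 0.05 there were 7, 3 and 0 members. No other tool was run for this comparison. The smallest adjusted p values in total mRNA were those of Rpl37a (0.109), Rpl31 (0.178) and Rplp1 (0.198). Rpl37a had 18516 to 20617 normalized counts in R98S clone 11, 15344 to 18206 in clone 13 and 11954 to 13695 in clone 35, with WT clones at 13359 to 15773. The WT range overlapped those of clones 13 and 35. Rpl31 likewise had 18390 to 19893 in clone 11 and 11491 to 15631 in clone 35. In polysomal RNA, Rpl36 (0.196), Rpl8 (0.212) and Rpl27 (0.217) had the smallest adjusted p values, and in the ratio several members were tied at the smallest adjusted p of 0.957.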

How the data were processed

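Total mRNA and polysomal RNA of Ba/F3 clones were taken from 2 gene tables with 17 and 14 libraries, and groups came from the labels. The authors made libraries with a stranded poly(A) kit, aligned reads to mm10 with TopHat2 2.0.11 after removal of rRNA and tRNA reads, kept reads with a mapping quality of at least 10 and counted reads on exons. The annotation and strand setting are not given in the sources used here. The deposited values are a signal, read counts divided by DESeq2 size factors within each table, and all values were whole multiples of one read within 0.001 of a read (100%). In the total mRNA libraries of R98S clone 13 number 1 and WT clone 36 number 2 this step was close to 1. For these libraries the whole values alone do not show that reads were recovered. No per-sample column was left unused.

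Values were transformed as log2(value + 1) and genes with a mean of at least 10 tested with limma 3.58.1 (lmFit, eBayes with a trend, R 4.3.3), two-sided, with Benjamini-Hochberg adjustment over all genes tested and a call at an adjusted p under 0.1. The study compared mRNA levels of the genotypes with DESeq2 and translation efficiency with Babel, which was not used here. DESeq2 and edgeR were run on recovered reads as an alternative (edgeR 4.0.16, DESeq2 1.42.0). Of all genes limma, edgeR and DESeq2 called, between genotypes, 3369, 3321 and 3555 (total mRNA), 1449, 1450 and 1909 (polysomal libraries) and 5, 1 and 37 (ratio). The ratio is the log2 polysomal minus the log2 total mRNA value of a culture. Differences are on the log2(value + 1) scale and understate those of low genes.

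Same-numbered libraries of the 2 genotypes deviated together, with correlations over genes of 0.62, 0.55 and 0.48 for numbers 1 to 3 (total mRNA), 0.70, 0.67 and 0.87 (polysomal RNA) and 0.67, 0.54 and 0.81 (ratio). The numbers were therefore used as a replicate block, from the data and not from the labels, in an alternative fit of the genotype comparison. The main genotype tests left this pairing out, and results with the block are given beside them. The closest pair of libraries of a group had a chi-square per gene of 4.36, so all were kept apart. Lengths and positions came from GENCODE M21 (GRCm38), with the longest transcript of the best APPRIS rank. Tests were checked on simulated independent libraries without clone or number effects, so such effects were not covered. Changes of 1 on the log2 scale were planted in 200 genes, for the genotype test without the block only. It recovered 199, 199 and 189 of them (total mRNA, polysomal RNA and ratio), with 23, 22 and 31 false calls. The number and clone tests had no planted change and made 0 calls.

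The members and lists were chosen with earlier results of these data known. Named genes are up to 5 called members per direction and genotype comparison, the 3 with the smallest adjusted p for number and for clone in each measure, the 3 highest and lowest by ratio and by level per length, and 11 members of known role. Those discussed beyond this rule (Rpl3, Rpl4 and Rpl8 in the number comparison, the other members called with the block, and the ratio order within numbers) were chosen after their values were seen. Alternatives were other pseudocounts, filters, scalings and tools, the replicate block, and leaving out clones, numbers or libraries.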

Additional observations from a re-analysis of the deposited data

Results flagged for a closer look

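Of 132 groups of libraries examined for the named members, 2 held a library that stood apart by Dixon's test, which chance gives in about 1 in 20 groups. Rpl24 total mRNA in R98S clone 11 number 2 was 914.8 normalized counts, where the 8 other R98S libraries had 1107 to 1260. Rpl41 total mRNA in R98S clone 35 number 2 was 9849.1, where the others had 13596 to 18328.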

How the results depend on the processing

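In total mRNA the 8 members called between genotypes became 4 with clone means, 3 with no filter on low values, and 1, 0 and 0 within replicate numbers 1, 2 and 3. They were 2 to 10 when one clone or number was left out and 12 with quantile normalization, the highest of 26 alternatives. No named member's genotype difference reversed its sign while called. The 0 members called in polysomal RNA became 1 with quantile normalization, 7 with the replicate block, 9 with the block and either a GC or a length correction, 9 within number 3, and 0 to 1 when one clone or number was left out. The block changed no other call of the genotype comparisons than these and Rpl14 and Rpl29 in total mRNA, and the ratio had 0 members called in all 26 alternatives.

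The 8 members called by number in total mRNA became 3 with a GC correction, 13 with a coding length correction and 3 to 8 when one clone was left out, and the 43 in polysomal RNA became 26 with a length correction. The 7 that differed in number 3 in total mRNA became 3 with a GC correction, 2 within WT and 0 within R98S. Between clones in total mRNA, 0 became 1 with quantile normalization and 0 to 1 with one clone left out. The cause was not tested.

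In the number 3 contrast, the length correction put 12 members below 0 in polysomal RNA and 9 in the ratio, where none had been. Among the named members these included Rpl10a (-0.008 in polysomal RNA, -0.007 in the ratio), Rpl41 (-0.756 and -0.858), Rplp0 (-0.479 and -0.529) and Rplp1 (-0.316 and -0.8). The coding length correction put 4 below 0 in each, among them Rpl41 (-1.538 and -1.768), Rplp1 (-0.132 and -0.399) and, in the ratio, Rplp2 (-0.029). All members had means above the filter of 10 normalized counts, so no member was lost to low depth.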
